A study of Rattus norvegicus with 36 samples.

Results

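The genes described here are 40 collagens, collagen-modifying enzymes and other extracellular matrix genes, followed across every strain, treatment and time group of a rat mammary gland array series. They were taken by gene symbol from the array annotation, and the set was chosen with earlier results of these data known. Of the 40 genes, 39 had a probe set, and Thbs1 was not analysed here. The 39 genes were covered by 61 of the 31099 probe sets in the deposited table. Of these 61, 57 passed the filter on dim probe sets, and the 4 that did not were further probe sets of Col12a1, Serpinh1 and Fbln1. Each gene was read from the probe set with the highest mean log2 value, and in this way all 39 entered the tests among 11509 genes. The representative probe set lay above the filter level on all 36 arrays for 38 of them, and on 17 arrays for Tnc.

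The series holds 36 arrays of mammary gland RNA in 12 groups of 3. Rats of the inbred strains F344 (Fischer) and Cop (Copenhagen), 55 days old, received either saline vehicle (control) or N-nitrosomethylurea (NMU), a DNA-alkylating mammary carcinogen, and glands were taken 6 h, 1 d or 30 d later. Copenhagen rats are known for their resistance to chemically induced mammary cancer, and F344 rats are susceptible. The sources used here do not give the NMU dose. The design text counts 18 rats of each strain, which equals the number of arrays of each strain. The labels call the replicates biological, and p-values measure the spread between these arrays.

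Fibrillar collagens I, III and V are secreted by stromal fibroblasts as procollagens. Prolyl hydroxylases and the chaperone Hsp47, the product of Serpinh1, act on them inside the cell. Outside it, the procollagen proteinase and its enhancer Pcolce trim them, and lysyl oxidases cross-link the fibrils. Collagen VI forms beaded filaments around the fibrils, collagen IV is the network of basement membranes, and fibrillins, microfibril proteins and elastin make the elastic fibre. In the mammary gland this matrix surrounds the ducts and changes with development, involution and tumour growth. The arrays measured whole gland, so fewer cells of a type and less RNA per cell cannot be told apart. Epithelial (Krt8, Krt18, Epcam), adipocyte (Adipoq, Fabp4) and fibroblast (Dpt) markers were all well above the array medians of 5.66 to 5.76. Skeletal muscle markers were also present and varied widely, with Acta1 between 4.29 and 13.77.

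**Figure D1:**
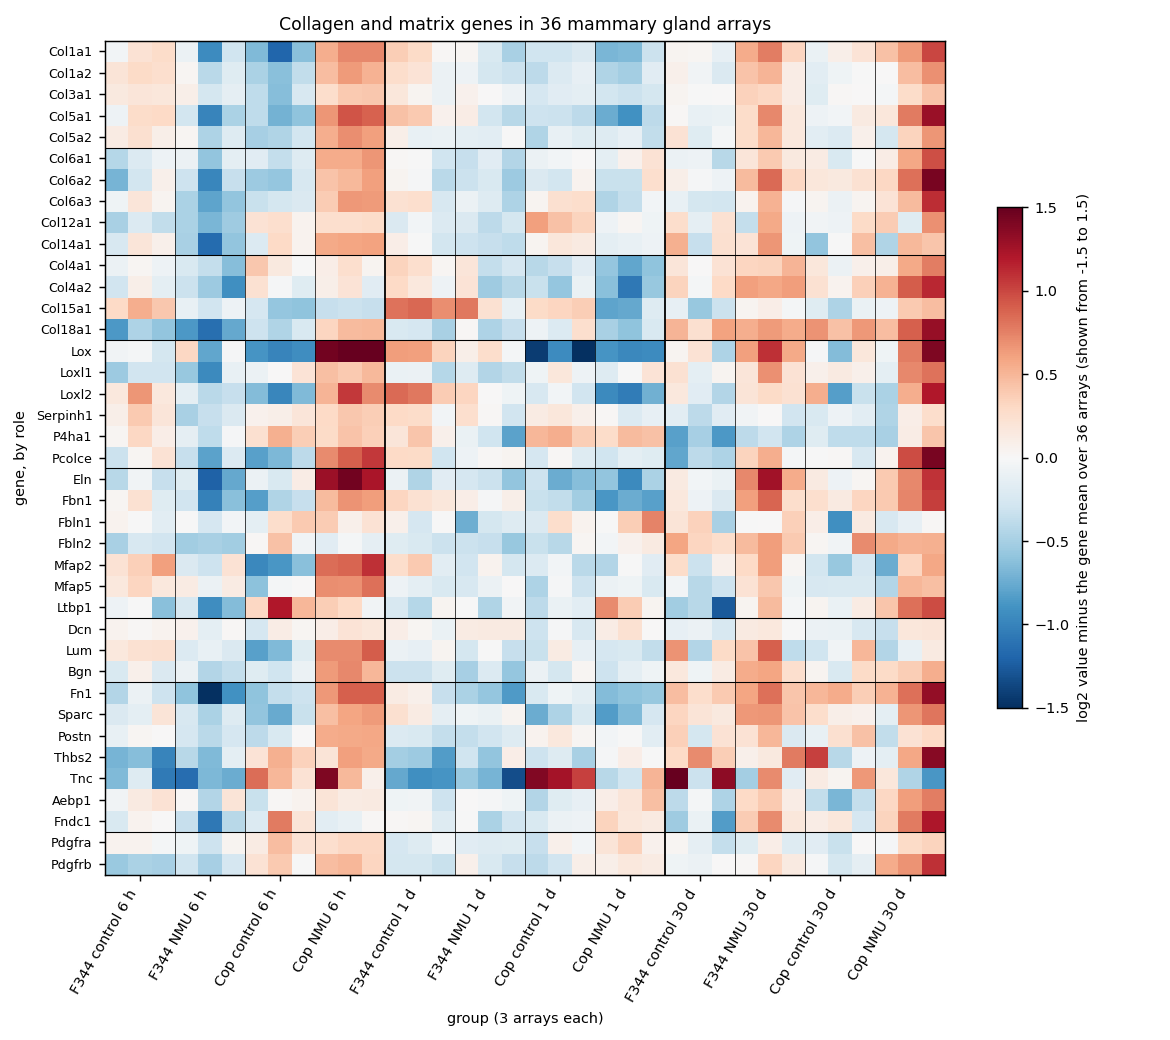
Heat map of the 39 genes (one line each, ordered by role) in all 36 arrays (columns, 3 per group), coloured by the log2 value minus the mean of that gene over the 36 arrays, shown from -1.5 to 1.5. The Cop NMU arrays at 6 h are red for most genes, and at 30 d the first Cop NMU array is paler than the other 2.

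The matrix genes differed more between groups than a typical gene did. The share of a gene's spread that lay between the 12 groups had a median of 76.7% over the 39 genes, against 62.9% over all genes tested. The range of the 12 group means had a median of 1.28 log2 units against 0.72, while the SD within groups was alike at 0.22 and 0.20. The share was highest for Col18a1 with 91.4% and lowest for the fibulin Fbln1 with 39.7%. These shares are descriptions without a test.

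In Cop glands 6 h after NMU, 21 of the 39 matrix genes rose and none fell. Over all genes tested, 4.68% rose and 3.29% fell in this comparison. The median log2 change of the 39 genes was 0.77, against -9.87e-05 over all genes. In 25 of the 39, all 3 NMU arrays lay above all 3 controls, which was so for 17.8% of all genes. Arrays that did not overlap the other way, lower after NMU, were found for 0 of the 39 and for 16% of all genes. The rises ranged from 0.76 for Col18a1 to 2.54 for Lox on the log2 scale.

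All 5 fibrillar collagen chains rose in Cop at 6 h. Col1a1, the alpha-1 chain of collagen I, read 12.14, 11.61 and 12.18 in the controls and 13.35, 13.53 and 13.52 after NMU. Its NMU arrays lay close together and clear of the controls, and it rose by 1.49 (SE 0.179, limma adjusted p = 4.7e-06). Its partner chain Col1a2 rose by 1.03 and the collagen V chains Col5a1 and Col5a2 by 1.40 and 1.03. Col3a1, the collagen III chain, read 13.06, 12.80 and 13.20 in controls and 13.70, 13.83 and 13.85 after NMU. Its arms did not overlap, and its rise was 0.77 (SE 0.0996, limma adjusted p = 1.07e-05). The 3 collagen VI chains rose by 0.83 (Col6a1), 0.96 (Col6a2) and 0.83 (Col6a3). Col12a1 and Col14a1, which decorate collagen fibrils, changed by 0.08 and 0.54 and did not pass.

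Of the 4 basement membrane collagens 1 was called, Col18a1 with 0.76. The collagen IV chains Col4a1 and Col4a2 read -0.05 and 0.03, and Col15a1 read 0.14. Col4a1 was 11.49, 11.24 and 11.08 in controls and 11.19, 11.34 and 11.13 after NMU, so that its arms overlapped. Against the Cop controls of 1 d Col4a1 was called higher at 0.44 (limma adjusted p = 0.0426) and Col4a2 read 0.38.

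Of the 6 enzymes and chaperones, 3 rose. Lox, the lysyl oxidase that cross-links collagen and elastin, had the largest change of all 39 genes. It read 7.78, 7.68 and 7.73 in Cop controls and 10.11, 10.36 and 10.34 after NMU. The arms were separated by more than 2 log2 units, and the rise was 2.54 (SE 0.267, limma adjusted p = 7.81e-07), or 5.81-fold. Its relative Loxl2 rose by 1.53, from 7.66, 7.33 and 7.66 to 8.83, 9.37 and 9.03 (SE 0.286, limma adjusted p = 0.00099). Pcolce, the enhancer of procollagen C-proteinase, rose by 1.51 (SE 0.225, limma adjusted p = 7.08e-05). Loxl1 (0.40), the collagen chaperone Serpinh1 (0.25) and the prolyl 4-hydroxylase subunit P4ha1 (-0.03) did not pass.

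Among 7 genes of elastic fibres and microfibrils, 4 rose. Mfap2, a microfibril-associated glycoprotein, rose by 1.76 (SE 0.231, limma adjusted p = 1.51e-05). Elastin, Eln, read 7.28, 7.14 and 7.48 in controls and 8.65, 8.81 and 8.59 after NMU, and its arms did not overlap (1.39, SE 0.204, limma adjusted p = 6.17e-05). Fibrillin-1, Fbn1, rose by 1.14 and Mfap5 by 0.95. The fibulins Fbln1 (0.05) and Fbln2 (-0.25) and the latent TGF-beta binding protein Ltbp1 (-0.46) did not pass.

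The small leucine-rich proteoglycans bind collagen fibrils and set their spacing. Lumican, Lum, read 10.28, 10.44 and 10.91 in controls and at least 11.80 on each NMU array. It rose by 1.33 (SE 0.246, limma adjusted p = 0.0009), with no overlap of the arms. Biglycan, Bgn, rose by 0.81. Decorin, Dcn, read 13.06, 13.42 and 13.34 in controls and 13.41, 13.52 and 13.48 after NMU. Its arms overlapped and its change of 0.20 did not pass.

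Of 7 adhesive and matricellular glycoproteins, 3 rose. Fibronectin, Fn1, read 11.10, 11.34 and 11.38 in controls and 12.35, 12.59 and 12.60 after NMU. Its arms did not overlap and it rose by 1.24 (SE 0.178, limma adjusted p = 5.12e-05). Sparc, a collagen-binding protein, rose by 1.12. Periostin, Postn, read 12.11, 12.28 and 12.50 in controls against 13.06, 13.07 and 13.08, and rose by 0.77. Thbs2 (0.10), Tnc (0.13), Aebp1 (0.24) and Fndc1 (-0.34) did not pass, nor did the PDGF receptors of mesenchymal cells, Pdgfra (0.02) and Pdgfrb (0.23). Tenascin-C, Tnc, varied most within groups among the 39, with an SD of 0.53.

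**Figure D2:**
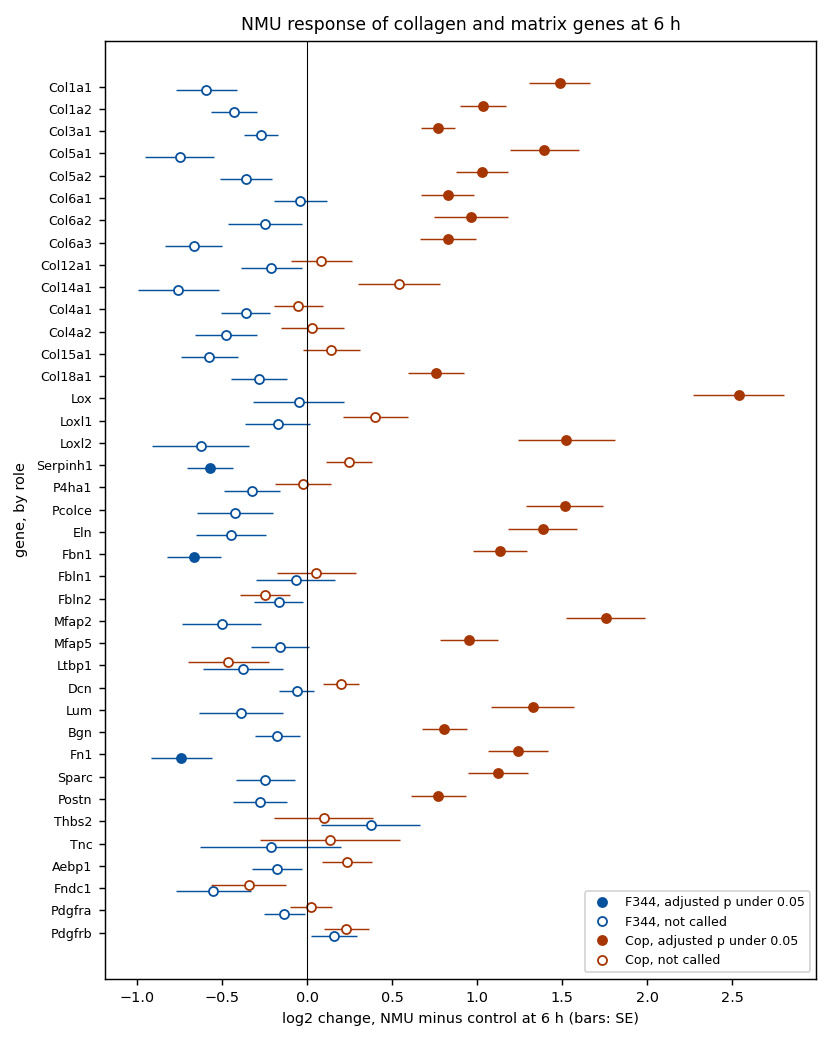
Log2 change after NMU at 6 h for each of the 39 genes (NMU minus control, 3 arrays against 3), with F344 in blue and Cop in brown, bars for the SE and filled points for a limma adjusted p under 0.05. In Cop 21 genes rose, led by Lox at 2.54, and in F344 the 3 filled points lie below 0, at -0.57 to -0.74.

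Second probe sets of the same genes gave the same picture. Of 18 further tested probe sets, 17 had the sign of the representative in Cop at 6 h, 10 were called together with it and 2 were called on one of the pair alone. In no comparison were a further probe set and its representative both called with opposite directions. When any single array of the comparison was left out, the count was again 21.

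The Cop 6 h controls were the lowest of the 12 groups for Col1a2, Col3a1, Col5a2, Pcolce, Mfap2 and Lum, as well as for Col1a1. The NMU arrays at 6 h were therefore also set against the Cop controls of 1 d, a comparison that also differs in time and was added with the results in view. In it 23 genes were higher and Col15a1 was lower, where 14% of all genes were called. Of the 21 genes, 19 were called again in the same direction, and Col6a3 and Col18a1 were not. The median change was 0.54 in place of 0.77.

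Other cell markers moved with the same groups. In Cop at 6 h, 5 of 11 T and NK cell markers and 3 of 11 adipocyte markers fell, and 4 of 11 fibroblast markers outside the 39 genes rose. Of the other lists, 2 of 10 macrophage markers and 1 of 10 endothelial markers rose, and 1 of 10 basal markers fell. No skeletal muscle marker of 14 passed, although their median change was 2.55. A list score is the mean deviation of the genes of a list from their means over the 36 arrays. The T and NK cell score was 0.39 to 0.90 in the controls, and after NMU it was -0.04, -1.17 and -1.09 in replicates 1, 2 and 3. The matrix score was -0.25 to -0.12 in controls and 0.46, 0.54 and 0.50 after NMU. The score of fibroblast markers outside the 39 genes was -0.39, -0.35 and -0.21 in controls and 0.23, 0.19 and 0.26 after NMU. Adipocyte, B cell, basal, macrophage and skeletal muscle scores were also separate between the arms, and luminal and endothelial scores overlapped. The part of these cell types in the result was not tested.

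The promoters of genes that rose together in Cop at 6 h can be read from RefSeq (rat assembly GRCr8), whose table held a window for 25 of the 39 genes, 13 of them among the 21. The following stretches, on the plus strand, are shown for 4 of the called genes with a box, as examples chosen after their values were seen. Those of Lum, Mfap2 and Pcolce end at the base before the annotated start. For Col1a2 only the first 110 of the 250 bases before the start are shown, so its stretch stops short of the start. Col5a1, Col18a1, Mfap5 and Postn were also called and held a box. Capitals mark a CCAAT box (CCAAT, read as ATTGG on the other strand), a GC box (GGGCGG or CCGCCC) or a TATA box (TATAAA).
Col1a2, chr4:33518307-33518416: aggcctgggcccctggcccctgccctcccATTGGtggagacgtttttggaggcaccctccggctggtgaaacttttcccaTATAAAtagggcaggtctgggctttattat
Lum, chr7:34245456-34245705: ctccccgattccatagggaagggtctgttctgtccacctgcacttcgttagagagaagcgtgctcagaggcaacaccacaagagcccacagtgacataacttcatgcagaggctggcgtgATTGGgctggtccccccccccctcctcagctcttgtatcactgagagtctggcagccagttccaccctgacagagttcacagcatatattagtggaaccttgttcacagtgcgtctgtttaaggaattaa
Mfap2, chr5:158597478-158597727: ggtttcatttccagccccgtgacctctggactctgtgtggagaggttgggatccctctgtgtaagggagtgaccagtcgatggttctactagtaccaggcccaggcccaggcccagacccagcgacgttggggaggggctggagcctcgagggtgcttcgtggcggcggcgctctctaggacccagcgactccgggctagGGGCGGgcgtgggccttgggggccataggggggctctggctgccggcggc
Pcolce, chr12:24720722-24720971: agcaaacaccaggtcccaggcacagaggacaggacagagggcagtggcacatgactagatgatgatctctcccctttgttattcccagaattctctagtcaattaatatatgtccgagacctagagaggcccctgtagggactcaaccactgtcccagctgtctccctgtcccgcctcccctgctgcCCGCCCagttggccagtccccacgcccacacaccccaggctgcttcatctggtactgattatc
For contrast, Col4a1 and Col4a2, which were not called, are transcribed away from each other, and only the 76 bases below lie between their annotated starts.
Col4a1 and Col4a2, chr16:84885521-84885596: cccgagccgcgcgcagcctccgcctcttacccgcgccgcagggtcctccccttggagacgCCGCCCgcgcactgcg

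No box was found in every gene that rose and had a window. Over the 250 bases before the start and on both strands, the CCAAT box lay in 3 of the 13 called genes with a window and in 4 of the 12 others. All 27457 RefSeq promoters of this length held it in 34.3%. The GC box lay in 4 of 13 and 7 of 12, against 32.4% of all promoters, and the TATA box in 2 of 13 and 1 of 12, against 13.1%. Col4a1 and Col4a2 are both among the 12 and their windows overlap. The GC box between their starts was therefore counted for each of them. The AP-1 site TGANTCA was found in 1 gene of each kind, against 6.36%, and the E-box CACGTG in neither, against 5.80%. The median GC content was 60% for the 25 genes and 52% for all promoters. Such matches describe the letters and were not shown to be binding sites.

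In F344 glands 6 h after NMU, 3 of the 39 genes fell and none rose, where 0.243% of all genes fell and 0.495% rose. Fibronectin, Fn1, read 11.26, 11.61 and 11.39 in controls and 11.10, 10.16 and 10.79 after NMU. NMU replicate 2 was lowest, all 3 NMU arrays lay below the controls, and Fn1 fell by 0.74 (SE 0.178, limma adjusted p = 0.0467). Fbn1 fell by 0.67 (SE 0.159, limma adjusted p = 0.0448). The chaperone Serpinh1 read 11.84, 12.15 and 11.93 in controls and 11.26, 11.41 and 11.53 after NMU, and fell by 0.57 (SE 0.135, limma adjusted p = 0.0408). The arms of all 3 genes were separate.

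The change was below 0 in 37 of the 39 genes, with a median of -0.32 against 0.07 over all genes. All NMU arrays lay below all controls for 20 genes, which was so for 7.99% of all genes, and above them for 0, against 17.7%. These F344 calls were close to the threshold. No gene was called without the filter on dim probe sets, without the trend and robust options of limma, or with the 6 compared arrays alone. None was called without control replicate 1, 2 or 3 or without NMU replicate 2, and 1 was called without NMU replicate 3. The matrix score was -0.62 in NMU replicate 2, -0.25 and -0.32 in the other NMU arrays and -0.17 to 0.05 in controls. No marker of another cell type was called in this comparison. The T and NK cell score was 0.10, 0.01 and -0.14 in controls and -0.53, -0.62 and -0.49 after NMU, without overlap. The endothelial score was -0.39, -0.31 and -0.41 in controls and -0.08, -0.24 and -0.22 after NMU, also without overlap. Their part in the result was not tested. Against the F344 controls of 1 d, added with the results in view, 10 genes were lower, including these 3, where 2.9% of all genes were called.

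The responses of the strains at 6 h were then compared directly, as the Cop change minus the F344 change. The difference was called for 20 of the 39 genes, all with the greater change in Cop, where 0.86% of all genes had such a call and 0.252% the opposite. The median difference was 1.04 against -0.08 over all genes. In 32 genes the change was below 0 in F344 and above 0 in Cop, in 5 it was below 0 in both and in 2 above 0 in both. Lox differed by 2.59 (SE 0.377, limma adjusted p = 0.000197). It read 8.62, 8.63 and 8.40 in F344 controls and 8.97, 7.88 and 8.64 after NMU, so that the F344 arms overlapped while the Cop arms lay far apart.

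The largest other differences were 2.26 for Mfap2, 2.15 for Loxl2, 2.14 for Col5a1, 2.08 for Col1a1 and 1.98 for Fn1. In F344 Col1a1 read 12.76, 13.02 and 13.07 in controls and 12.72, 11.86 and 12.50 after NMU, lower in each NMU array than in any control. Its strain difference had an SE of 0.253 and a limma adjusted p of 2.12e-05. The difference for Loxl2 had an adjusted p of 0.0044, and of 0.0663 with the replicate number as a block. Of the 21 genes called in Cop at 6 h, 19 were also called for the strain difference, and Col6a1 and Col6a2 were not. Serpinh1 was called for the difference, at 0.82, with a fall in F344 and an uncalled 0.25 in Cop. The Cop change enters the strain difference, so this overlap follows in part from the shared arrays. Leaving out any array of the comparison gave 16 to 22 calls.

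**Figure D3:**
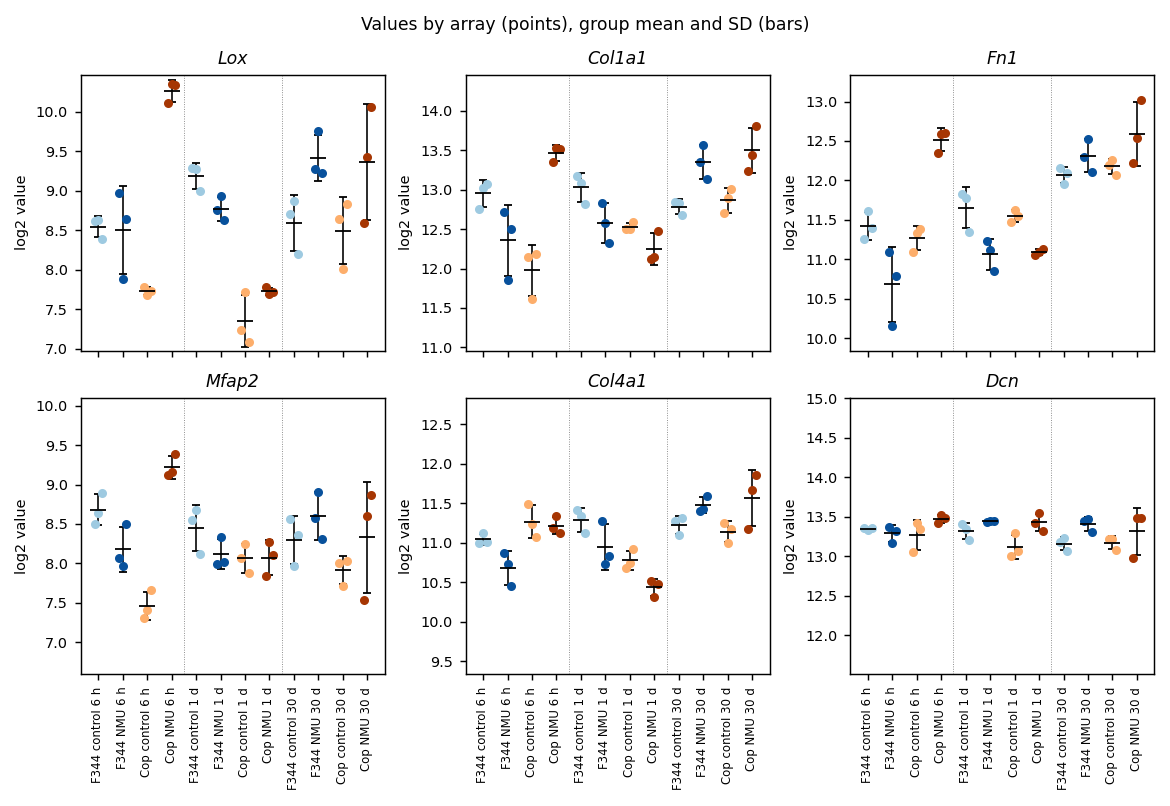
Log2 values of Lox, Col1a1, Fn1, Mfap2, Col4a1 and Dcn on each array (points) in the 12 groups, with group mean and SD (bars) and the same axis span of 3.5 log2 units in each panel. Lox in the Cop NMU arrays at 6 h reads 10.11 to 10.36, above the Cop controls of 7.68 to 7.78, and Dcn stays within 12.97 to 13.54 on all arrays.

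By 1 d the rise in Cop was no longer seen. None of the 39 genes was higher and 1, Col15a1, was lower, where 0.6% of all genes rose and 0.452% fell. Col15a1, a collagen of the basement membrane zone, fell by 0.91 (SE 0.168, limma adjusted p = 0.0051). Its adjusted p missed the threshold without NMU replicate 1 or 2. Lox read 7.24, 7.72 and 7.09 in Cop controls and 7.78, 7.70 and 7.72 after NMU, and the arms overlapped. Col1a1 read 12.51, 12.50 and 12.58 in controls and 12.12, 12.15 and 12.48 after NMU, all below the controls, without passing. The genes of next smallest p were Aebp1 at 0.49 and Tnc, which read 6.55, 6.41 and 6.19 in controls and 4.75, 4.86 and 5.67 after NMU. The Tnc change of -1.29 did not pass. In Cop at 1 d, 15 of the 39 genes had arrays that lay fully below the controls and 6 fully above, against 8.19% and 8.21% of all genes.

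The Cop response at 1 d was lower than at 6 h for 19 of the 39 genes and higher for none, where 2.16% of all genes were lower and 0.878% higher. The change of the response was -2.24 for Loxl2 (SE 0.405, limma adjusted p = 0.00164) and -2.16 for Lox (SE 0.377, limma adjusted p = 0.00112). Col1a1 (-1.77), Mfap2 (-1.75), Col5a1 (-1.74) and Fn1 (-1.70) followed. Of the 21 genes that had risen at 6 h, 18 were among the 19, and Col6a1, Col6a2 and Mfap5 were not. The remaining gene was Col15a1 at -1.05. The 6 h arrays enter both comparisons, so this overlap is not a separate result.

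In F344 at 1 d no matrix gene was called, where 1.23% of all genes were. By limma without adjustment 7 of the 39 had p under 0.05, and the median change was -0.17 with 32 genes below 0. The 3 of smallest p were P4ha1 at -0.62, Fn1 at -0.59 and Col15a1 at -0.49. Leaving out NMU replicate 1 gave 2 calls. The change of the F344 response between 6 h and 1 d was called for none of the 39, where 0.443% of all genes were. Nor was the strain difference at 1 d called for any of them, where 0.287% of all genes were. These percentages are calls by adjusted p. At an unadjusted limma p under 0.05 the numbers were 1 and 6 of the 39. The share of all genes at an unadjusted p under 0.05 was not computed for any comparison.

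**Figure D4:**
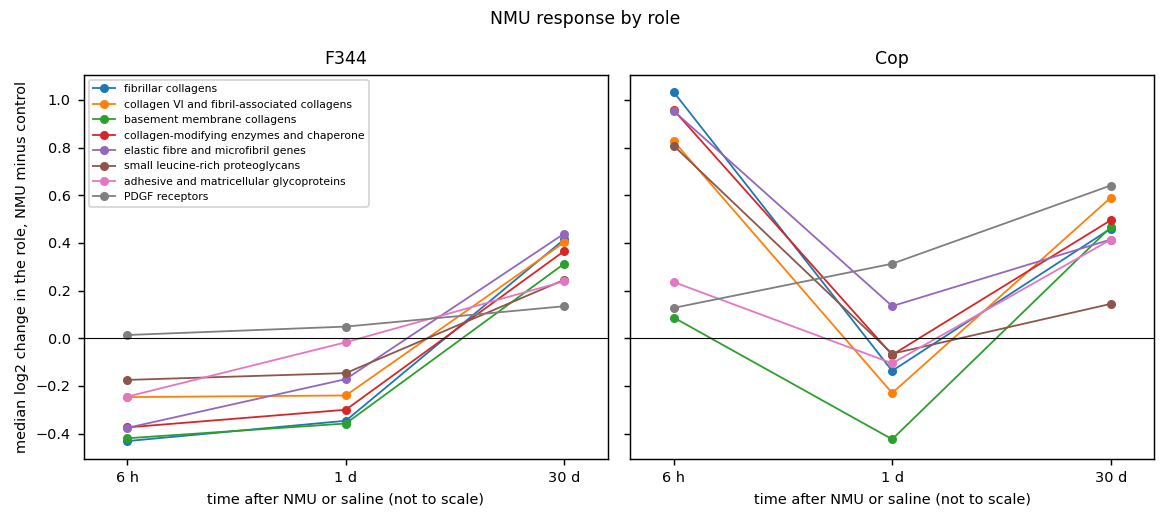
Median log2 change after NMU (NMU minus control) of the genes in each of 8 roles at 6 h, 1 d and 30 d, for F344 (left) and Cop (right), on a shared axis. At 6 h the fibrillar collagens stand at 1.03 in Cop and -0.43 in F344, and at 30 d they stand at 0.46 and 0.42.

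At 30 d matrix genes were again higher after NMU, now in both strains. In Cop 14 of the 39 rose and none fell, where 4.84% of all genes rose and 6.36% fell. In F344 6 rose and none fell, where 0.686% of all genes rose and 3.65% fell. The median change was 0.41 in Cop and 0.35 in F344, against -0.03 and -0.05 over all genes, and 36 of the 39 were above 0 in each strain. Both sets shared Fbn1, Eln, Aebp1, Pcolce and Fndc1, which is 35.7% of the Cop genes and 83.3% of the F344 genes. Of all 39 genes, 35.9% rose in Cop and 15.4% in F344, and the overlap was not tested. The strain difference at 30 d was called for none of the 39, nor for any gene tested, and 2 of the 39 had an unadjusted p under 0.05 by limma.

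In Cop at 30 d the leading genes were Aebp1, a collagen-binding protein also known as ACLP, and the pericyte and fibroblast receptor Pdgfrb. Aebp1 rose by 1.04 (SE 0.148, limma adjusted p = 0.000341). Pdgfrb read 7.75, 7.51 and 7.64 in controls and 8.33, 8.45 and 8.86 after NMU, with all NMU arrays above the controls (0.91, SE 0.134, limma adjusted p = 0.000412). Pcolce rose by 0.89, Lox by 0.87, Fndc1 by 0.76 and Col5a1 by 0.74. The 3 collagen VI chains rose by 0.59 to 0.67, Col1a1 by 0.63 and Col4a2, a basement membrane chain not called at 6 h, by 0.64. Lox read 8.64, 8.02 and 8.83 in controls and 8.60, 9.43 and 10.06 after NMU, so that its arms overlapped through NMU replicate 1. Of these 14 genes 10 had also risen at 6 h, which is 71.4% of the genes of 30 d and 47.6% of the genes of 6 h. Of all 39 genes, 53.8% had risen at 6 h and 35.9% rose at 30 d, and the overlap was not tested. Aebp1, Fndc1, Pdgfrb and Col4a2 were called at 30 d and not at 6 h, a difference between times that was not tested. Against the Cop controls of 1 d, Pdgfrb was called higher at 6 h too, by 0.63.

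The Cop NMU arrays of 30 d were unlike each other. The matrix score was 0.04 in replicate 1, within the controls at -0.13 to 0.09, and 0.48 and 0.76 in replicates 2 and 3. Without NMU replicate 1 the count was 30, without NMU replicate 2 it was 5 and without NMU replicate 3 it was 2. Without control replicate 1 it was 8, and without control replicate 2 it was 5. The shares of all genes called in these fits were not computed, so the counts are descriptions only. Aebp1 and Pdgfrb were called whichever array was left out. In a fit of the 6 compared arrays alone no gene was called.

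Lymphocyte markers were divided in the same way. For T and NK cells the controls scored 0.40 to 0.91, NMU replicate 1 scored 0.66, and the other NMU arrays scored -1.97 or lower. For B cells NMU replicates 1, 2 and 3 scored 1.22, -2.62 and -2.49. In this comparison 7 of 11 T and NK cell markers, 4 of 6 B cell markers and 2 of 12 luminal markers fell, and 8 of 10 endothelial markers rose. Of the fibroblast markers outside the 39 genes 3 of 11 rose, and their score was -0.25, 0.52 and 0.58 in NMU replicates 1, 2 and 3 against -0.01, -0.43 and -0.14 in controls. Adipocyte markers rose in 2 of 11 and macrophage markers in 2 of 10, while 1 macrophage marker and 2 of 10 basal markers fell. The endothelial score was 0.50, 0.70 and 0.97 after NMU, all above the controls of -0.14 to 0.23. Skeletal muscle scored -4.06 in NMU replicate 1, 1.44 and 0.57 in the others and -0.98 to -0.23 in controls, with 0 of 14 markers called. Their part in the matrix result was not tested.

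In F344 at 30 d the called genes were Fndc1 (0.91), Ltbp1 (0.89), Eln (0.85), Pcolce (0.83), Fbn1 (0.63) and Aebp1 (0.56). Eln read 7.50, 7.32 and 7.26 in controls and 8.08, 8.63 and 7.92 after NMU, with no overlap (SE 0.204, limma adjusted p = 0.0192). In 23 of the 39 genes all NMU arrays lay above all controls, against 9.37% of all genes, and in 0 they lay fully below, against 15.1%. For Cop at 30 d these numbers were 14, against 8.21%, and 0, against 10.5%. Lox in F344 read 8.71, 8.88 and 8.20 in controls and 9.28, 9.76 and 9.23 after NMU, apart without passing at 0.83. None of the 6 genes was called in the fit of the compared arrays alone, or without control replicate 1 or 3, or without NMU replicate 1 or 2. The skeletal muscle score also moved, at -4.28, -0.42 and -3.08 in controls and 1.45, 1.05 and -0.25 after NMU, with 0 of 14 markers called. Endothelial markers rose in 3 of 10 and adipocyte markers in 1 of 11, and 1 of 11 T and NK cell markers fell. The score of fibroblast markers outside the 39 genes was 0.27, 0.14 and 0.16 in controls and 0.46, 0.54 and 0.38 after NMU, with 0 of 11 called. The adipocyte score was -0.42, -0.51 and -0.36 in controls and 0.06, -0.22 and 0.17 after NMU. The luminal score was 1.46, 0.84 and 1.26 in controls and -0.01, 0.55 and 0.31 after NMU, with 0 of 12 called. None of these 3 scores overlapped between the arms. The part of these cell types in the matrix result was not tested.

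**Figure D5:**
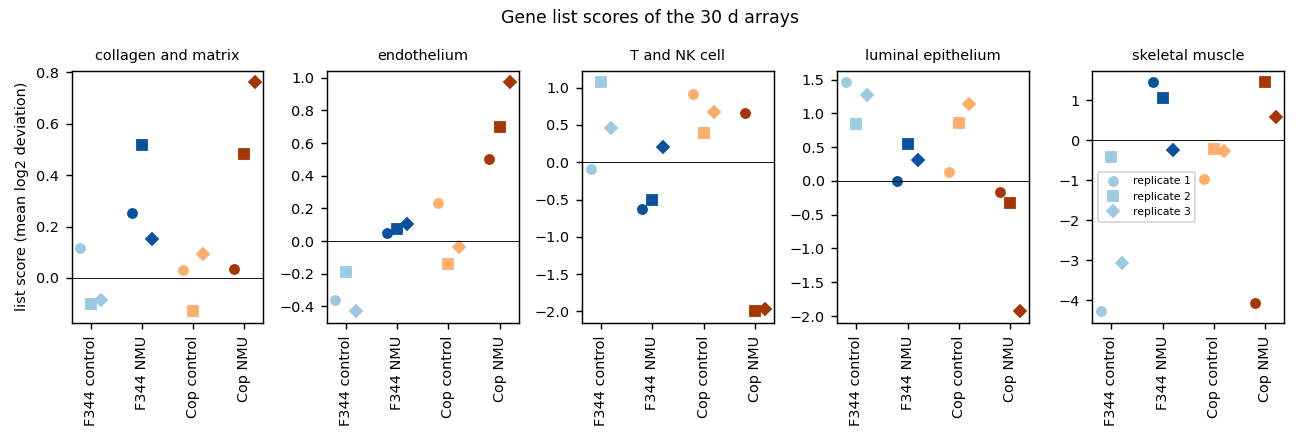
Scores of 5 gene lists (mean log2 deviation of the genes of a list from their means over 36 arrays) on the 12 arrays of 30 d, with circles, squares and diamonds for replicates 1, 2 and 3 and separate axis ranges. Cop NMU replicate 1 has a matrix score of 0.04 and a T and NK cell score of 0.66, whereas the other Cop NMU arrays have matrix scores of 0.48 and 0.76 and T and NK cell scores of -1.97 or lower.

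The saline controls themselves differed between strains. Over the 3 times, 11 of the 39 genes (28.2%) were lower in Cop than in F344, where 13.9% of all genes were. Another 6 (15.4%) were higher, near the 14.9% of all genes. Lox was lower by the most, with -0.92 (SE 0.154, limma adjusted p = 5.32e-05), followed by Loxl2 (-0.67), Mfap2 (-0.66), Col1a1 (-0.46), Col5a1 (-0.43) and Col15a1 (-0.42). Tnc (0.84), Ltbp1 (0.55), Col12a1 (0.36), P4ha1 (0.30), Col18a1 (0.25) and Pdgfrb (0.24) were higher. The arms overlapped for each of the 17 when the 3 times were pooled.

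These strain differences were not alike at the 3 times. The Cop mean minus the F344 mean of Lox was -0.82 at 6 h, -1.84 at 1 d and -0.10 at 30 d. For Col1a1 it was -0.97, -0.50 and 0.08, and for Mfap2 -1.22, -0.39 and -0.38. Tnc went from 1.16 and 2.08 to -0.72, and its F344 controls of 30 d read 7.11, 4.84 and 6.51, far apart from each other. With the controls of 1 d and 30 d alone, 2 of the 39 genes were called, Lox at -0.97 and Col4a1 at -0.30, where 13.3% of all genes were. Of the 17, Lox alone was among these 2. The Cop controls of 6 h are also the reference of the Cop response at 6 h.

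The controls also differed by time. At 30 d, when the rats were older, 8 of the 39 genes (20.5%) were higher than at 6 h and 1 d over both strains, and 4 (10.3%) were lower. Over all genes tested 15.1% were higher and 18.4% lower. The share higher was thus near that of all genes, and the share lower was below it. Col18a1, the precursor of endostatin, was higher by 0.84 (SE 0.1, limma adjusted p = 1.94e-07), Thbs2 by 0.67, Fn1 by 0.65, Fbln2 by 0.48, Sparc by 0.44 and Col6a2 by 0.35. Fn1 was higher at 30 d in each control array than in any earlier one. The prolyl hydroxylase subunit P4ha1 was lower by the most, with -0.82 (SE 0.102, limma adjusted p = 3.74e-07) and no overlap, followed by Col15a1 (-0.55), Serpinh1 (-0.36) and Aebp1 (-0.29). Between 6 h and 1 d, Col15a1 alone was called, with 0.59 (SE 0.119, limma adjusted p = 0.0363), where 0.217% of all genes were. That call was lost in 10 of the 12 fits that left out an array.

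Further genes of collagen synthesis and matrix adhesion that are not among the 39 were read from a list of 42, of which 36 were tested. In Cop at 6 h 10 of them rose and none fell, with a median of 0.32. They included Fkbp10, a collagen chaperone (1.34), the matricellular Ccn1 (1.20), the prolyl 4-hydroxylase subunit P4ha2 (1.20) and the collagen V chain Col5a3 (0.92). P4ha2 thus rose where P4ha1, the subunit among the 39, read -0.03. The strain difference at 6 h was called for 6 of the 36, all greater in Cop, led by P4ha2 (1.69) and Fkbp10 (1.66), with the prolyl 3-hydroxylases P3h3 (1.22) and P3h1 (0.97). In F344 at 6 h and in either strain at 1 d no gene of this list was called by limma. At an unadjusted p under 0.05 the numbers were 4 in F344 at 6 h, 0 in F344 at 1 d and 4 in Cop at 1 d. The Cop response at 1 d was below that at 6 h for 5 of them, Col5a3 (-1.76), Fkbp10 (-1.40), P4ha2 (-1.18), P3h1 (-1.01) and Lamc1 (-0.59).

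At 30 d in Cop 12 of the 36 rose and Skil fell (-0.72). The largest rises were Itga11, a collagen receptor subunit (1.29), Ccn1 (1.25), the basement membrane proteoglycan Hspg2 (0.79) and the fibronectin receptor subunit Itga5 (0.72). In F344 at 30 d the collagen receptor Ddr2 (0.68) and Hspg2 (0.53) rose.

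Over the 6 comparisons of NMU with control, 28 of the 39 genes were called at least once. The matching share over all genes was not computed, so this count is a description only. The 11 that were not are the collagens Col4a1, Col12a1 and Col14a1, the lysyl oxidase relative Loxl1, decorin (Dcn), the fibulins Fbln1 and Fbln2, Thbs2, Tnc, P4ha1 and Pdgfra. Dcn kept a narrow range, with group means within 0.35 log2 units of each other. The group means of Tnc spread over 2.08 log2 units. Fbn1 is the one gene called in 4 of the 6, lower in F344 at 6 h and higher in Cop at 6 h and in both strains at 30 d.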

How the data were processed

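Mammary gland RNA of 36 samples, 18 of each strain, was measured on 1-colour Affymetrix arrays. The submitters' processing notes name GCOS. How probes were summarized and arrays normalized is unstated in those notes and in the labels. Each deposited value is the authors' log2 expression value of a probe set, with array medians of 5.66 to 5.76, and was used as deposited. Arrays have no read depth, and their number limits the precision.

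Probe sets above the 40th percentile of their array on at least 3 arrays were tested (20748), 10294 others were not, and 57 control probe sets were left out. Gene names come from the platform annotation, in which 20826 probe sets have 1 symbol, 436 several and 9831 none. All 39 genes matched a RefSeq gene by Entrez identifier. limma 3.58.1 in R 4.3.3 fitted a mean for each of 12 groups (24 residual degrees of freedom), with trend and robust moderation. The two-sided p-values were adjusted by Benjamini-Hochberg over all probe sets within each of 14 comparisons, with 0.05 as the threshold. The fit was tested on simulated data. The closest replicates were F344 controls 1 and 2 of 1 d, with a root mean square log2 difference of 0.163 against 0.232 for the next pair, and were kept as 2 samples.

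Replicate numbers come from the labels. The deviations of same-numbered arrays from their group means correlated at 0.114, 0.142 and 0.435 in Cop at 6 h. In Cop at 1 d these values were 0.202, 0.424 and 0.315, and at other times or in F344 at least 1 pair was under 0.1.

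The 39 genes and the lists were chosen with earlier results of these data known. In each comparison up to 6 called genes of largest change in each direction are named, or the 3 of smallest p where fewer than 3 were called, beside the whole role groups. Some further genes are named after their values were seen, to complete a group or count. Alternatives were quantile normalization, other filters, plain moderation, the replicate block, the compared arrays alone, all probe sets and leaving out arrays. The fits against other controls were added after seeing the data.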

Additional observations from a re-analysis of the deposited data

Results flagged for a closer look

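The response to NMU at 6 h differed between the strains for 20 of the 39 genes, by a test of the difference itself (limma, Cop change minus F344 change). All 20 differences are positive. The Loxl2 call was lost with the replicate number as a block (limma adjusted p = 0.0663). The Cop controls of 6 h enter every difference and were the lowest of all groups for several of these genes. The strain difference was not refitted with other controls. Among the fibrillar collagens they are 2.14 for Col5a1, 2.08 for Col1a1, 1.46 for Col1a2, 1.39 for Col5a2 and 1.04 for Col3a1. For the other collagens they are 1.50 for Col6a3 and 1.04 for Col18a1. The enzymes and the chaperone gave 2.59 for Lox, 2.15 for Loxl2, 1.94 for Pcolce and 0.82 for Serpinh1. The elastic fibre genes gave 2.26 for Mfap2, 1.83 for Eln, 1.80 for Fbn1 and 1.11 for Mfap5. The proteoglycans gave 1.71 for Lum and 0.98 for Bgn. The glycoproteins gave 1.98 for Fn1, 1.37 for Sparc and 1.05 for Postn.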

How the results depend on the processing

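Of 1305 values of named genes under an alternative, 1163 kept their direction and side of the threshold, 139 lost the call, 3 gained one and 0 reversed. In F344 at 6 h, 0 genes were called without the filter on dim probe sets, without trend and robust options or with the compared arrays alone, and 10 against the 1 d controls. The compared arrays alone also gave 0 in F344 at 30 d, 0 in Cop at 30 d and 3 in Cop at 1 d. Another alternative counted all 57 tested probe sets of these genes in place of genes, so its counts cannot be set beside the gene counts. Of these 57 probe sets, 3 were called in Cop at 1 d and 23 in Cop at 30 d. For the Cop change from 6 h to 1 d 31 were called, and for Cop against F344 controls 27. Counted by gene, Cop against F344 controls gave 2 calls with controls of 1 d and 30 d only. Leaving out each array gave 0 to 2 calls in F344 at 6 h, 0 to 2 in F344 at 1 d, 0 to 9 in F344 at 30 d, 21 to 21 in Cop at 6 h, 0 to 1 in Cop at 1 d and 2 to 30 in Cop at 30 d. It gave 16 to 22 for the strain difference at 6 h, 0 to 0 at 1 d and 30 d, 17 to 20 for the Cop change and 0 to 0 for the F344 change. It gave 15 to 18 for Cop against F344 controls, 9 to 15 for 30 d against earlier controls and 0 to 1 for 1 d against 6 h controls. With the replicate block, the counts were 3, 0 and 6 in F344 and 21, 1 and 16 in Cop at 6 h, 1 d and 30 d, 20 for the strain difference at 6 h, 19 for the Cop change, and 17, 12 and 1 for the control comparisons. Among named genes the block ended the call of Loxl2 for the strain difference, Fn1 in F344 at 6 h and Pcolce in F344 at 30 d. Quantile normalization moved the median of all genes by under 0.1 in each comparison. Apart from the fits against other controls, the share of all genes called was not computed under these alternatives. The causes were not tested.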
